A study of Homo sapiens with 4 samples.

Results

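Histone lysine demethylases (erasers, 24 genes) and the enzymes and subunits that methylate lysine 4 of histone H3 (H3K4; writers, 16 genes) were followed in LNCaP cells, a human prostate cancer line that came from a lymph node metastasis and responds to androgen. The 40 genes were listed by name and family, and 39 of them were among the 17600 of 60675 annotated genes with enough counts to be tested. RIOX1 was the gene left out. The names erasers and writers follow family, and some members lack that activity, such as JARID2 among the erasers and KMT2E among the writers. Every culture received the synthetic androgen R1881 at 1 nM, over 72 h, in medium with hormone-depleted serum. In 2 of the libraries the androgen was combined with the DMSO vehicle (the final DMSO concentration differs between the sample labels and the methods), and in the other 2 it was combined with 50 µM CPI-455, an inhibitor of the KDM5 demethylases. All 4 libraries are thus of androgen-treated cells of a single line, and the methods call the 2 libraries of a group biological replicates.

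The vehicle libraries held 19623553 and 20690819 counted fragments and the CPI-455 libraries 9522920 and 5401588, so the precision for genes with few counts was poorer in the CPI-455 group. All 9 luminal prostate markers examined (KLK2 and KLK3 among them) were above the floor of 3 counts in at least 1 library. Their summed level was 938 to 1031 normalized CPM (counts per 1000000, scaled for library composition) in the vehicle libraries and 396 to 453 CPM in the CPI-455 libraries. Basal markers summed to 0.189 to 1.24 CPM, with KRT5 at 0 in every library, endothelial markers to 0 to 1.56 CPM and leukocyte markers to 2.18 to 6.30 CPM. Fibroblast and smooth muscle markers summed to 16.2 to 22.0 CPM and neuroendocrine markers to 24.2 to 41.2 CPM. Of the luminal markers, KLK3 fell from 404 and 357 CPM to 107 and 136 CPM. KLK2 went the other way, from 84.2 and 64.4 CPM to 108 and 111 CPM. Each of the other luminal markers was lower in both CPI-455 libraries than in either vehicle library. The part of the lower luminal sum in the results was not tested. These are bulk libraries, in which fewer cells of a kind and less RNA per cell cannot be told apart.

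Methyl groups on H3K4 mark promoters and enhancers of active genes. They are added by SET-domain enzymes of the COMPASS family (KMT2A to KMT2D, SETD1A and SETD1B), each of which works in a complex with the core subunits WDR5, RBBP5, ASH2L and DPY30, and the methyl group comes from S-adenosylmethionine. They are removed by the flavin-dependent enzymes KDM1A (LSD1) and KDM1B and by the KDM5 enzymes. The KDM5 enzymes belong to the Jumonji C (JmjC) family, whose active enzymes need iron, oxygen and 2-oxoglutarate. Many of its other members, though not all, act on lysines 9, 27 or 36 of histone H3. In prostate cancer cells several of these enzymes are known as cofactors of androgen-regulated transcription.

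Promoter sequence was taken from RefSeq (GRCh38.p14), which held 33 of the 40 genes and a single window for 23 of them. A GC box, GGGCGG on either strand, lay in the 250 bases before the start site of 18 of these 23 genes (78.3%) and in 42.6% of all 35116 promoter windows. The letters CCAAT, on either strand, were found in 5 of the 23 (21.7%) and in 32.0% of all windows. The letters TATAAA (10.7% of all windows) occurred in none of the 23 on either strand. The median number of CG dinucleotides per window was 23 for these listed genes and 11 for all. All windows include those of genes with several windows, so the listed genes and the background are not like sets. The 5 sequences shown are those of called genes, or of a family pair that moved in opposite directions, with at least 200 of the 250 bases before every exon of the gene in the deposited annotation, and only those bases are given. They are all the genes with a single window that met this rule, the eraser and the writer that fell furthest (KDM4D and RBBP5) among them. Capitals mark GC boxes (CCGCCC where the box is on the other strand) and CCAAT boxes.
KDM4D: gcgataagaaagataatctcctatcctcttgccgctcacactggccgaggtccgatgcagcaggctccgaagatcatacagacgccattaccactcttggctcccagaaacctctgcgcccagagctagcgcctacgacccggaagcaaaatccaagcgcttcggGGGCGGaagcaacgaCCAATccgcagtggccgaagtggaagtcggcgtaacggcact
RBBP5: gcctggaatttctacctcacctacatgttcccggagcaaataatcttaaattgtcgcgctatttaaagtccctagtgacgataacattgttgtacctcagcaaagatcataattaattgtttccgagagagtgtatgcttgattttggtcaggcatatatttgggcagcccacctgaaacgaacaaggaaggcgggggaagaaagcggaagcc
ASH1L: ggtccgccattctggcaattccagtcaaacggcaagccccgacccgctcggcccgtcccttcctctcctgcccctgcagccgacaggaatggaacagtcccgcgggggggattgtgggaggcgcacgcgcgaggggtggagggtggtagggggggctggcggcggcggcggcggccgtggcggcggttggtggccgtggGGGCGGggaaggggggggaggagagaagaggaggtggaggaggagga
KMT2C: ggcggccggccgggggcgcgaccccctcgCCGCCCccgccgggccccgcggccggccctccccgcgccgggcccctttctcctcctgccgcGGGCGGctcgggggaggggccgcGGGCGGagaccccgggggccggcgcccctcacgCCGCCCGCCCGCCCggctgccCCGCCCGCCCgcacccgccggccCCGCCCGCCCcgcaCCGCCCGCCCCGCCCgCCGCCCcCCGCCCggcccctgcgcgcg
KMT2D: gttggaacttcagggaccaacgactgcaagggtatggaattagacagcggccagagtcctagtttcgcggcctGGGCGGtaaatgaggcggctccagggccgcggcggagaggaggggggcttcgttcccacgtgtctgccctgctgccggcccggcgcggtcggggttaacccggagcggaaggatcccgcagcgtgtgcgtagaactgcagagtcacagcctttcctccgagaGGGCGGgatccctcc
The KDM4D stretch is chr11:94973459-94973680 on the plus strand and holds 1 GC box and 1 CCAAT box. The RBBP5 stretch, chr1:205122016-205122228 on the minus strand, has neither motif and a GC content of 44.1%. That of ASH1L (chr1:155562808-155563053, minus strand) has 1 GC box. KMT2C (chr7:152436006-152436253, minus strand) holds 15 GC boxes, some of which overlap each other, in sequence with a GC content of 92.3%, and KMT2D (chr12:49060795-49061044, minus strand) holds 2 at 65.6%. The matches describe these letters only.

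With CPI-455, 8 of the 39 genes tested were called lower and 2 called higher, where a call is a change of at least 2-fold at an FDR below 0.05 (edgeR's quasi-likelihood test, Benjamini-Hochberg adjustment over all 17600 genes). The genes called lower were KDM4D, KDM3B, JMJD1C and KDM5B among the erasers and RBBP5, SETD1B, ASH1L and SETD1A among the writers. Those called higher were the writers CXXC1 and SMYD3. The 8 lower genes are 20.5% of the list and the 2 higher genes 5.13%, where 21.3% and 21.0% of all genes tested were called in these directions and, among protein-coding genes, 24.4% and 15.6%. With upper-quartile normalization 4 listed genes were called lower and 3 higher, and with library totals alone 11 and 2. Over all 17600 genes, 3096 were called lower and 4298 higher with the upper quartile. With library totals these were 4563 and 3128. A further 8 genes fell and 9 rose at an FDR below 0.05 by less than 2-fold, and 12 did not pass, beside 62.6% of all genes tested that had an FDR below 0.05. When the test asked for a change beyond 2-fold (edgeR's glmTreat), KDM4D and RBBP5 remained lower and CXXC1 and SMYD3 higher at an FDR below 0.05, and the other 6 did not pass (FDR from 0.0559 for SETD1B to 0.275 for KDM5B). All fold changes are given as CPI-455 over vehicle, so a negative log2 value is a lower level with the inhibitor.

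Both CPI-455 libraries lay below both vehicle libraries for 22 of the 39 genes and above them for 15, and only KDM2B and KDM5C overlapped. Over all genes tested the shares below and above were 42.8% and 39.1%. The median log2 fold change was −0.24 for the list, −0.43 for the 23 erasers tested and 0.22 for the 16 writers, beside −0.04 for all genes tested and −0.21 for the protein-coding ones. For the enzymes of H3K4 alone the signs were the reverse in the main fit. Their medians were 0.16 for the 5 erasers of H3K4 and −0.30 for the 6 methyltransferases of the COMPASS family. The first median is the value of KDM1B, which did not pass and stood at −0.026 with library totals. Of the 6 methyltransferases, 3 had values below 0 and 3 above it, so neither median describes a shared direction. Of the erasers, 4 were called lower and 0 higher, 6 fell and 4 rose by less than 2-fold, and 9 did not pass. The 4 that rose are also those with values above 0 at an unadjusted p under 0.05 in the edgeR test, and DESeq2 and the likelihood-ratio test called 0 erasers higher as well. Of the writers, 4 were called lower and 2 higher, 2 fell and 5 rose by less than 2-fold, and 3 did not pass. The difference between the medians of erasers and writers was not tested, and both medians moved with the length correction and the scaling given in the closing section.

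**Figure D1:**
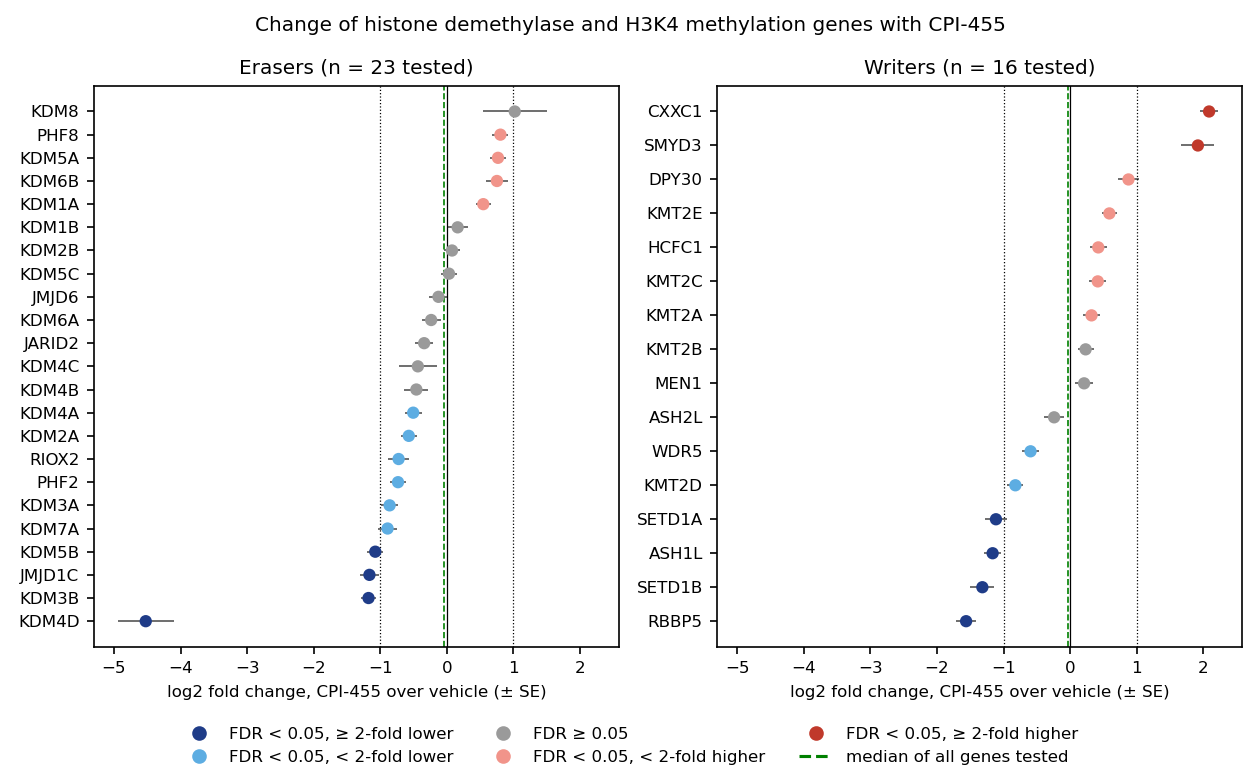
Log2 fold change of each tested gene with CPI-455 over vehicle (x axis, points with SE bars, 2 libraries per group), for 23 erasers on the left and 16 writers on the right, coloured by the test. Dotted lines mark a 2-fold change and the dashed line the median of all genes tested (−0.04). KDM4D stands far to the left at −4.52, and CXXC1 and SMYD3 lie to the right of the 2-fold line.

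The KDM5 genes, the targets of CPI-455, did not move together. KDM5B (ENSG00000117139, chromosome 1 from 202724491 to 202809470), an H3K4 demethylase, had 122 and 119.7 CPM with vehicle and 57.7 and 57.3 CPM with CPI-455. The groups did not overlap and each replicate pair was close. KDM5B fell 2.11-fold (log2 fold change −1.07, SE 0.12, FDR = 4.915e-05), which puts it at percentile 22.3 of the fold changes of all genes tested. With upper-quartile normalization its log2 fold change was −0.90, under the 2-fold limit. KDM5A (ENSG00000073614, chromosome 12 from 280129 to 389454), which removes the same mark and was first described as a retinoblastoma-binding protein, moved the other way. It had 106 and 119 CPM with vehicle and 188 and 197 CPM with CPI-455, a rise of 1.70-fold (log2 0.77, SE 0.12, FDR = 0.000367) that stayed under the 2-fold limit of a call. KDM5C (ENSG00000126012, chromosome X from 53191321 to 53225422), the most abundant of the 3 per exon length, had 249 and 259.7 CPM with vehicle and 283 and 237 CPM with CPI-455. Its groups overlapped, and a log2 fold change of 0.03 (SE 0.12, FDR = 0.829) does not show that its level was the same. With the trend of fold change over exon length removed its log2 fold change was 0.42 (FDR = 0.0139), and 0.41 (FDR = 0.00308) with the replicate block added.

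Since KDM5A and KDM5B have almost equal total exon lengths (12106 and 12092 bases), their ratio within a library depends neither on library scaling nor much on length. The log2 ratio of their levels per exon length (RPKM, CPM per 1000 bases of exon), KDM5A over KDM5B, was −0.21 and −0.01 in the vehicle libraries and 1.70 and 1.78 in those with CPI-455. The means were −0.11 ± 0.14 and 1.74 ± 0.05 (SD, n = 2), a change of 3.60-fold in the ratio. With 2 libraries against 2 the exact permutation test, two-sided, cannot give a p below 0.333, so the ratio was not tested. In the fits under other settings the difference between the log2 fold changes of KDM5A and KDM5B stayed between 1.74 and 1.95. Library scaling cancels from such a difference, so the settings of scaling could not move it. Both ends of the range are from fits without a vehicle library. The summed level of the KDM5 genes was 47.4 and 49.5 RPKM with vehicle and 52.6 and 48.1 RPKM with CPI-455, and these groups overlapped. Within that sum the share of KDM5B went from 20.7% ± 0.98 to 9.46% ± 0.56 and the share of KDM5A from 19.2% ± 1.01 to 31.6% ± 3.06 (SD, n = 2). KDM5C made up 60.1% ± 0.03 and 58.9% ± 3.63 (SD, n = 2) of it, and its share overlapped between the groups.

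**Figure D2:**
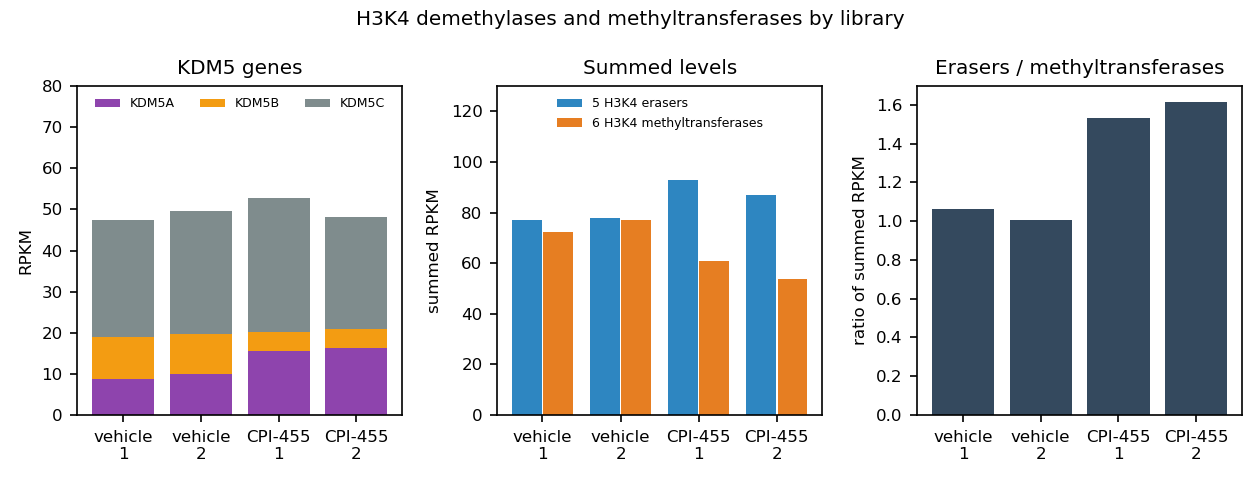
Levels per exon length (RPKM) in each of the 4 libraries. Left, KDM5A, KDM5B and KDM5C stacked; middle, the sums over 5 H3K4 erasers and 6 H3K4 methyltransferases; right, the ratio of these sums. The KDM5B segment is smaller and the KDM5A segment larger in both CPI-455 libraries, and the ratio is 1.53 and 1.62 there against 1.06 and 1.01 with vehicle.

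KDM1A (ENSG00000004487, chromosome 1 from 23019448 to 23083689), the flavin-dependent LSD1 that removes H3K4 mono- and dimethylation, had 121 and 111 CPM with vehicle and 172 and 167 CPM with CPI-455. It rose 1.46-fold (log2 0.55, SE 0.11, FDR = 0.00231) and the groups did not overlap. KDM1B, its relative without the part that binds CoREST, had 33.8 and 35.3 CPM with vehicle and 39.9 and 37.3 CPM with CPI-455 and did not pass (log2 0.16, FDR = 0.364). Both H3K4 erasers of the LSD type thus had log2 fold changes above 0, although that of KDM1B went to −0.03 when libraries were scaled by their totals alone.

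Of the 6 JmjC genes listed for lysine 9 of histone H3, 5 fell and 1 rose, without overlap between the groups. Of all genes tested, 42.8% had both CPI-455 libraries below both vehicle libraries and 39.1% above them. KDM3B and JMJD1C were called lower, KDM3A, KDM7A and PHF2 fell by less than 2-fold, and PHF8 rose. KDM3B (ENSG00000120733, chromosome 5 from 138352596 to 138437028) had 201 and 181 CPM with vehicle and 85.0 and 84.3 CPM with CPI-455 (log2 −1.18, SE 0.12, FDR = 2.68e-05). JMJD1C (ENSG00000171988, chromosome 10 from 63167221 to 63521850), a member of the same KDM3 family, had 82.0 and 91.1 CPM with vehicle and 36.4 and 41.2 CPM with CPI-455 (log2 −1.16, SE 0.14, FDR = 8.626e-05). Both genes were lower in both CPI-455 libraries than in either vehicle library. KDM3A, the third gene of the family, had 111 and 105 CPM with vehicle and 55.2 and 64.2 CPM with CPI-455. Its log2 fold change was −0.86 (SE 0.13, FDR = 0.000362), so all 3 KDM3 genes fell. With the trend over exon length removed the values were −0.80 for KDM3B, −0.78 for JMJD1C and −0.52 for KDM3A, all under the 2-fold limit.

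The PHF2, PHF8 and KDM7A genes form a further family, with a PHD finger that binds methylated H3K4 next to the JmjC domain, and its members moved in opposite directions. PHF8 had 114.0 and 114.1 CPM with vehicle and 215 and 183 CPM with CPI-455 (log2 0.81, SE 0.12, FDR = 0.000332). PHF2 had 128 and 143 CPM with vehicle and 82.9 and 80.3 CPM with CPI-455 (log2 −0.73, SE 0.12, FDR = 0.000577). KDM7A had 58.7 and 64.8 CPM with vehicle and 31.8 and 35.1 CPM with CPI-455 (log2 −0.89, SE 0.15, FDR = 0.000592). For none of the 3 did the groups overlap. The log2 ratio of PHF2 to PHF8 per exon length went from 0.94 ± 0.11 to −0.59 ± 0.13 (SD, n = 2), so PHF2 was the more abundant with vehicle and PHF8 with CPI-455. The difference of their fold changes lay between −1.82 and −1.44 over all settings, and that of KDM7A and PHF8 between −1.87 and −1.48. As library scaling cancels here too, these ends are from fits with length and GC trends removed or without a CPI-455 library.

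KDM4D (ENSG00000186280, chromosome 11 from 94973681 to 94999518) showed the largest change of the list. It encodes a demethylase of lysine 9 that, unlike KDM4A to KDM4C, lacks the PHD and Tudor domains. Raw counts of 459 and 418 in the vehicle libraries stood against 4 and 8 in the CPI-455 libraries, and its normalized expression was 21.7 and 19.1 CPM against 0.45 and 1.59 CPM. The log2 fold change was −4.52 (SE 0.42, FDR = 1.641e-05), or 23.0-fold lower, with a range of −5.53 to −3.70 over all settings that could include it. Only 1.35% of the genes tested had a lower value. KDM4D has 3 exon blocks in the annotation, and of the 1370 protein-coding genes with at most 3 blocks 31.2% were called lower and 18.2% higher. Of the other KDM4 genes, which act on lysines 9 and 36, KDM4A fell (log2 −0.50, FDR = 0.00625), while KDM4B (−0.46, FDR = 0.0504) and KDM4C (−0.43, FDR = 0.207) did not pass, and 32.1% of the exon bases of KDM4C are shared with other annotated genes.

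**Figure D3:**
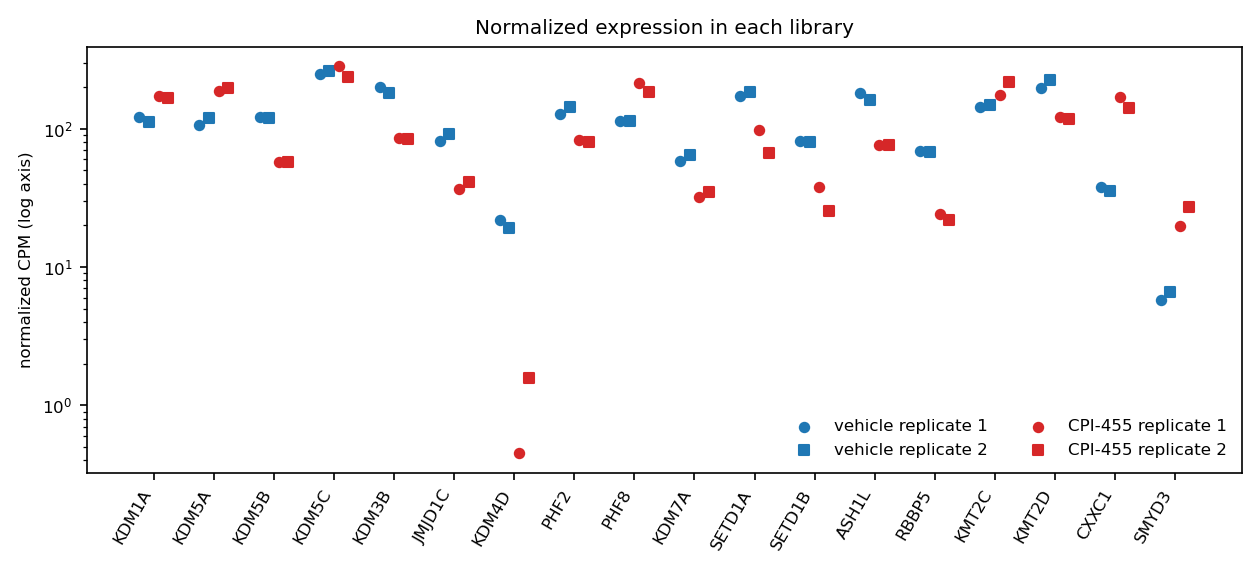
Normalized expression (CPM, log axis) of 18 named genes in each of the 4 libraries, with vehicle in blue and CPI-455 in red and replicates 1 and 2 as circles and squares. Only KDM5C overlaps between the groups among the genes shown. KDM4D drops from 21.7 and 19.1 CPM to 0.45 and 1.59 CPM, and CXXC1 and SMYD3 rise in both CPI-455 libraries.

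Among the erasers of other residues, none was called. KDM6B, which removes lysine 27 methylation and is known as an inducible gene, had 61.2 and 67.4 CPM with vehicle and 125 and 90.4 CPM with CPI-455 (log2 0.75, SE 0.16, FDR = 0.00287). Its X-linked relative KDM6A (UTX), a subunit of the KMT2C and KMT2D complexes, had a log2 fold change of −0.23 and did not pass (FDR = 0.174). Of the lysine 36 demethylases, KDM2A fell (−0.57, FDR = 0.00231) and KDM2B overlapped between the groups (0.08, FDR = 0.600). RIOX2, a ribosomal oxygenase, fell (−0.72, FDR = 0.00348), with 27.6% of its exon bases shared with CRYBG3 on the other strand. JARID2, a JmjC protein of the Polycomb complex without demethylase activity, had a log2 fold change of −0.34 (FDR = 0.0516), and JMJD6, a lysyl hydroxylase, of −0.13 (FDR = 0.472).

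For KDM8 and RIOX1 the counts were low. KDM8 had 57 and 55 counts in the vehicle libraries and 66 and 14 in the CPI-455 libraries, and its normalized values in the latter, 7.42 and 2.78 CPM, differed more from each other than the groups did. It did not pass (log2 1.02, SE 0.48, FDR = 0.0912), although leaving out CPI-455 replicate 2 made it a called gene with a log2 fold change of 1.46, and leaving out CPI-455 replicate 1 gave 0.071 (FDR = 0.908). In these fits the lone library is assumed to vary like the vehicle group. KDM8 was also called where only genes with at least 10 counts in every library were tested (log2 1.08, FDR = 0.0471). RIOX1, a ribosomal oxygenase gene with a single exon, had 15 and 9 counts in the vehicle libraries and 0 in both CPI-455 libraries. A count of 0 allows up to 0.337 and 0.595 CPM in these shallower libraries, beside 0.71 and 0.412 CPM measured with vehicle, so that the first bound lay below both vehicle values and the second between them. The filter on low counts left RIOX1 out of the main test. Without a filter it was called lower (FDR = 0.0497), as it was without CPI-455 replicate 2 (FDR = 0.0301) but not without CPI-455 replicate 1 (FDR = 0.0885).

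Among the writers, SETD1A and SETD1B, the enzymes of the SET1 complexes that deposit most H3K4 trimethylation at promoters, were both called lower. SETD1A (ENSG00000099381, chromosome 16 from 30957294 to 30985116) had 173 and 185 CPM with vehicle and 97.5 and 66.2 CPM with CPI-455 (log2 −1.11, SE 0.17, FDR = 0.000358). SETD1B (ENSG00000139718, chromosome 12 from 121804180 to 121832584) had 81.5 and 80.1 CPM with vehicle and 38.1 and 25.6 CPM with CPI-455 (log2 −1.32, SE 0.18, FDR = 0.000193). For each of the genes the second CPI-455 library was the lower, and without that library the log2 fold change of SETD1A was −0.92, under the 2-fold limit. KMT2C and KMT2D, which monomethylate H3K4 at enhancers, moved in opposite directions. KMT2C had 144 and 149 CPM with vehicle and 175 and 217 CPM with CPI-455 (log2 0.42, SE 0.13, FDR = 0.0192). KMT2D had 196 and 226 CPM with vehicle and 121 and 118 CPM with CPI-455 (log2 −0.82, SE 0.12, FDR = 0.000289). Their log2 ratio per exon length, KMT2C over KMT2D, went from −0.50 ± 0.11 to 0.73 ± 0.24 (SD, n = 2). The difference of their fold changes, from which library scaling cancels, was between 1.06 (without CPI-455 replicate 2) and 1.63 (length and GC trends removed). KMT2A (MLL1), known from leukaemia translocations, rose slightly (0.32, FDR = 0.0438), and KMT2B (0.23, FDR = 0.120) did not pass.

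The core subunits did not change as a unit either. RBBP5 (ENSG00000117222, chromosome 1 from 205086142 to 205122015), the subunit that together with ASH2L activates the catalytic subunit, had 69.0 and 67.6 CPM with vehicle and 24.2 and 21.8 CPM with CPI-455. It fell 2.95-fold (log2 −1.56, SE 0.15, FDR = 1.85e-05), the largest fall among the writers, and was called lower under every setting, with values from −1.75 to −1.20. WDR5, which binds the tail of the catalytic subunits, fell from 212 and 204 CPM to 150.2 and 125 CPM (log2 −0.59, FDR = 0.00250). ASH2L did not pass (−0.24, FDR = 0.184). DPY30, the smallest subunit, rose from 36.1 and 35.4 CPM to 58.7 and 73.4 CPM (log2 0.88, SE 0.15, FDR = 0.000861), but 50.5% of its exon bases are shared with MEMO1 and fragments there were not assigned. The summed level of the core subunits per exon length was 94.1 and 91.0 RPKM with vehicle and 74.0 and 71.5 RPKM with CPI-455.

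CXXC1 (ENSG00000154832, chromosome 18 from 50282343 to 50288304) rose most of the list. It encodes CFP1, the subunit that brings SETD1A and SETD1B to unmethylated CpG islands. Raw counts were 798 and 773 in the vehicle libraries and 1503 and 712 in the CPI-455 libraries, the latter from libraries with far fewer fragments, and its normalized expression was 37.8 and 35.4 CPM against 169 and 141 CPM. The log2 fold change was 2.09 (SE 0.14, FDR = 2.438e-06), or 4.25-fold higher, with a range of 1.90 to 2.28 over all settings. The SET1 enzymes and their CpG-binding subunit were thus called in opposite directions. HCFC1, a subunit of several of these complexes, rose from 217 and 209 CPM to 313 and 256 CPM (log2 0.42, FDR = 0.0145). MEN1 (menin), which tethers KMT2A and KMT2B, did not pass (0.21, FDR = 0.199).

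Of the SET-domain genes outside COMPASS, ASH1L (ENSG00000116539, chromosome 1 from 155335268 to 155562807), now known mainly as a lysine 36 methyltransferase, had 183 and 160.2 CPM with vehicle and 76.8 and 76.1 CPM with CPI-455 (log2 −1.16, SE 0.12, FDR = 3.588e-05). SMYD3 (ENSG00000185420, chromosome 1 from 245749342 to 246507312), a methyltransferase of histones and of cytoplasmic kinases, had 122 and 144 counts in the vehicle libraries and 177 and 138 in the CPI-455 libraries. Normalized, these are 5.78 and 6.59 CPM against 19.9 and 27.4 CPM, a log2 fold change of 1.92 (SE 0.25, FDR = 0.000132). SMYD3 was called higher under every setting, with values from 1.64 to 2.40. KMT2E (MLL5), a reader-type relative whose SET domain lacks methyltransferase activity, rose (0.59, SE 0.11, FDR = 0.00164).

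Erasers and writers of H3K4 were then compared by their summed level per exon length in each library. The 5 erasers (KDM1A, KDM1B, KDM5A, KDM5B and KDM5C) summed to 77.02 and 77.7 RPKM with vehicle and 93.1 and 87.0 RPKM with CPI-455. The 6 methyltransferases (KMT2A to KMT2D, SETD1A and SETD1B) summed to 72.4 and 77.1 RPKM with vehicle and 60.7 and 53.8 RPKM with CPI-455. Neither sum overlapped between the groups. The ratio of the sums, which does not depend on the scaling between libraries, was 1.04 ± 0.04 with vehicle and 1.57 ± 0.06 with CPI-455 (SD, n = 2). The difference is larger than the spread between replicates, but at 2 libraries against 2 no exact test can pass. Leaving out any 1 of the 11 genes kept both CPI-455 libraries above both vehicle libraries, with the fold change of the ratio between 1.25 (without SETD1A) and 1.69 (without KMT2A). SETD1A made up 34.7% ± 0.09 of the methyltransferase sum with vehicle and 20.5% ± 3.83 with CPI-455 (SD, n = 2). Fits with other scaling, filters or tests gave 1.57 with CPI-455, a value that such settings could hardly change. The ratio was 1.64 to 1.89 in the fits with length or GC trends removed. Without single libraries it was 1.53 to 1.62, with the vehicle level kept at the mean of both libraries. Sums of transcript levels are no measure of enzyme or of H3K4 methylation.

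Per exon length, WDR5 had the highest level of the 40 genes in both groups, 57.4 ± 1.62 RPKM with vehicle and 37.9 ± 4.97 RPKM with CPI-455 (SD, n = 2). With vehicle it was followed by KDM5C (29.1 ± 0.90 RPKM), SETD1A (25.9 ± 1.21 RPKM), MEN1 (25.8 ± 0.87 RPKM), PHF2 (24.4 ± 1.83 RPKM) and KDM3B (24.03 ± 1.81 RPKM), of which SETD1A, MEN1, PHF2 and KDM3B do not differ from their neighbours beyond the replicate spread. With CPI-455, CXXC1 rose from rank 25 to rank 2 (35.9 ± 4.56 RPKM), within the spread of WDR5, and HCFC1 (31.6 ± 4.42 RPKM), KDM1A (31.3 ± 0.66 RPKM) and KDM5C (29.7 ± 3.73 RPKM) came next. SETD1A went from rank 3 to 16, KDM3B from 6 to 17 and RBBP5 from 10 to 28. The lowest levels with vehicle were those of RIOX1 (0.231 RPKM), KDM8 (0.646 RPKM), KDM4C (0.829 RPKM) and SMYD3 (1.05 RPKM). Exon length here is that of all annotated exons of a gene, so a gene with many unused exons appears lower than its transcripts are.

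**Figure D4:**
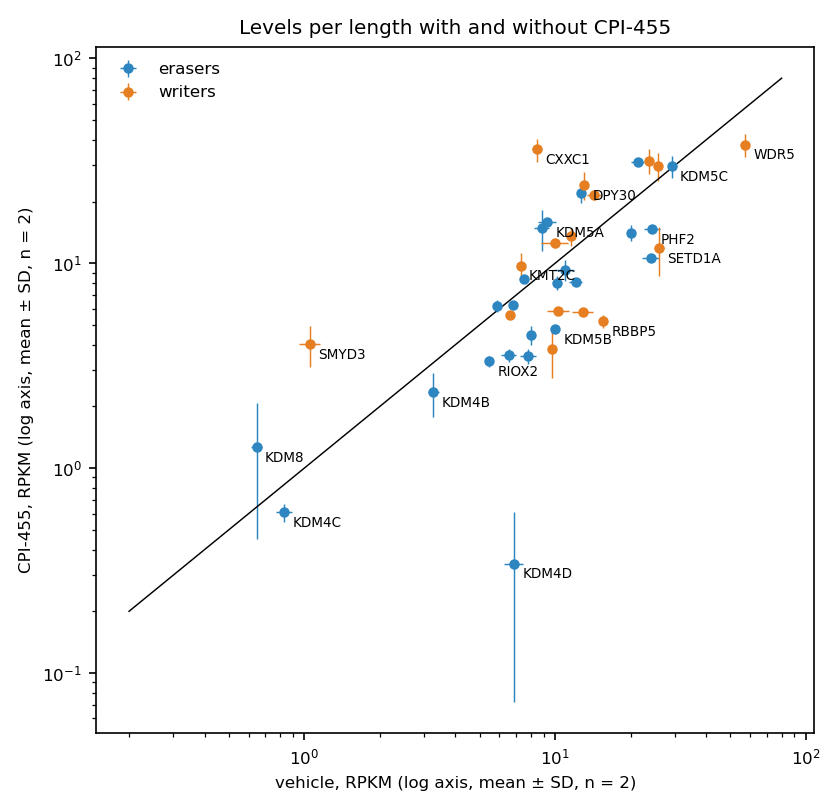
Level of each gene per exon length with vehicle (x) and CPI-455 (y), in RPKM on log axes, as means with SD bars (n = 2 per group), erasers in blue and writers in orange. The line marks equal levels, RIOX1 (0 with CPI-455) is left out, and 16 genes are labelled. CXXC1 and SMYD3 lie far above the line and KDM4D far below it.

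Length moved with the comparison. Over all genes tested, genes in the lowest quartile by exon length (under 2411 bases) had a median log2 fold change of 0.68 and those in the highest quartile (from 6804 bases) of −0.35, with 27.5% of the latter called lower and 12.4% called higher. The listed genes are long, with a median of 7961 bases beside 4292 for all genes tested, and 24 of the 39 are in the highest quartile. Those 24 had a median of −0.45, with 6 called lower and 0 higher, and the other 15 had a median of −0.13 with 2 called lower and 2 higher. When a smooth trend on exon length was removed from each library, 2 genes were called lower (KDM4D and RBBP5) and 5 higher (CXXC1, SMYD3, KDM5A at 1.13, PHF8 at 1.19 and KDM6B at 1.10). KDM5B then stood at −0.71 (FDR = 0.000864), KDM3B at −0.80, JMJD1C at −0.78, SETD1A at −0.78, SETD1B at −0.94 and ASH1L at −0.83, all still lower and past the FDR but by less than 2-fold. The erasers' median became −0.05 and the writers' 0.42. Over all 17592 genes in that fit, 3155 were called lower and 3698 higher. The part of length in the fold changes of single genes was not tested.

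**Figure D5:**
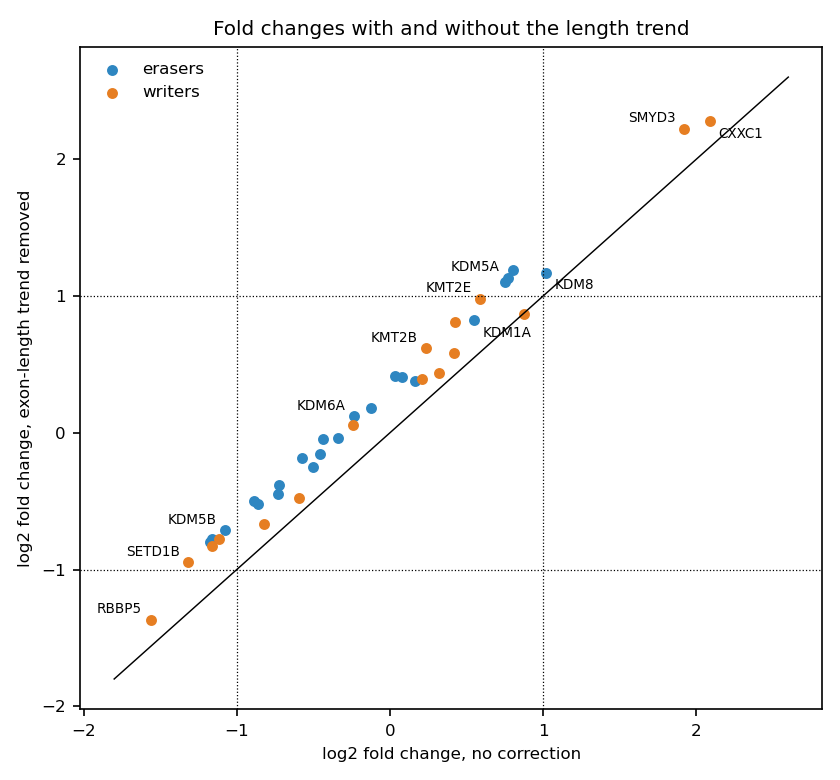
Log2 fold change of each tested gene, CPI-455 over vehicle, without correction (x) and after removal of the trend on exon length (y), erasers in blue and writers in orange. KDM4D, off the scale, is left out and 11 genes are labelled. Most points lie above the line of equal values, and KDM5B passes from outside to inside the dotted 2-fold lines while KDM5A does the reverse.

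Genes around the listed enzymes were counted in 6 further lists. Of 17 tested partners of KDM1A in CoREST and related complexes, 1 was called lower (RCOR2, −1.16) and 3 higher. HMG20B, a subunit of the KDM1A complex, rose from 125 and 109 CPM to 314 and 303 CPM (log2 1.40, SE 0.12, FDR = 9.766e-06), and ZMYM3 rose by 1.20. Of 15 COMPASS partners, 4 were called lower and 3 higher. MGA (−1.77) and CHD8 (−1.58) fell furthest, and BOD1L1, a relative of the SET1 subunit BOD1, rose from 192 and 203 CPM to 608 and 730.1 CPM (log2 1.76, SE 0.12, FDR = 3.517e-06). BAP18, with 18 to 49 counts and 76.5% of its exon bases shared with other annotated genes, had a log2 fold change of 2.30 (FDR = 0.00365). Of 3 other H3K4 methyltransferases tested, SETMAR (−1.99) and SETD7 (−1.79) were called lower. SETD7, a monomethyltransferase of H3K4 and many other proteins, went from 245 and 271 CPM to 75.6 and 73.4 CPM (SE 0.12, FDR = 2.664e-06).

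Among 22 tested proteins that bind methylated H3K4, 4 were called lower and 3 higher. The PHD finger proteins PYGO2 and PYGO1, which bind methylated H3K4 in Wnt signalling, fell most, with log2 fold changes of −2.75 (SE 0.14, FDR = 8.886e-07) and −2.48 (SE 0.22, FDR = 1.18e-05). PYGO2 had 119.5 and 122 CPM with vehicle and 18.8 and 16.9 CPM with CPI-455. ING4, a subunit of a histone acetyltransferase complex, rose by 1.47 and ZCWPW1 by 1.08. Of 5 other tested JmjC genes, HIF1AN (−1.70), the asparagine hydroxylase that restrains hypoxia-inducible factor, and JMJD4 (−1.67) were called lower and JMJD8 (1.39) higher. JMJD4 and JMJD8 share 53.8% and 37.4% of their exon bases with other annotated genes.

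The last list held 12 genes that supply the cofactors of these enzymes, of which 5 were called lower and 1 higher. MAT2A, which makes S-adenosylmethionine, the methyl donor of every writer, fell furthest. It had 17998 and 18799 counts in the vehicle libraries and 517 and 367 in the CPI-455 libraries, or 852 and 861 CPM against 58.1 and 72.8 CPM. The log2 fold change was −3.72 (SE 0.14, FDR = 3.722e-07), or 13.2-fold lower. AHCY, which clears the product S-adenosylhomocysteine, fell too (−1.14, SE 0.12, FDR = 2.964e-05). Of the genes that make 2-oxoglutarate, IDH1 (−1.63) and IDH3A (−1.54) were called lower. In contrast, IDH3B (0.94, FDR = 0.000115) and IDH3G (0.93, FDR = 0.00032), the partner subunits of IDH3A, rose by less than 2-fold. IDH2 (−0.37, FDR = 0.135) did not pass. IDH3A shares 38.9% of its exon bases with other annotated genes. RFK, the kinase that turns riboflavin into the precursor of the flavin of KDM1A, was called lower (−1.12). D2HGDH, which converts D-2-hydroxyglutarate, an inhibitor of JmjC enzymes, back to 2-oxoglutarate, rose from 13.0 and 11.3 CPM to 68.6 and 56.9 CPM (log2 2.38, SE 0.17, FDR = 4.361e-06). These lists were not tested as sets, and the share called in each is to be read beside the 42.4% of all genes tested that were called in either direction.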

How the data were processed

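Gene-level data were analysed for 4 LNCaP libraries, 2 per group, with groups and replicate numbers from the sample labels. The authors trimmed the reads with Trim Galore, used STAR for alignment to GRCh38 and featureCounts to count fragments per gene over its exons; tool names are also given in the submitters' processing notes. The deposited values are raw counts, without normalization. Strand was not used in the counting and fragments that match several genes were not assigned, so genes that share exon bases are measured less surely (of the listed genes, 5 share over 10% and 23 under 1%).

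From the deposited counts, edgeR 4.0.16 in R 4.3.3 was run with TMM scaling, its filter on low counts (minimum 10) and the quasi-likelihood test without covariates, on the whole table. CPM are scaled by TMM and RPKM also by total exon length. The SE is the log2 fold change divided by the square root of the F statistic. Genes were called at an FDR below 0.05 and at least 2-fold. Symbols were matched for 56558 of 60675 genes. Alternatives used DESeq2 1.42.0, mgcv 1.9.3 and other edgeR settings. Values in every library were given for KDM1A and the KDM5 genes, for called genes with the largest changes and for family pairs that differed. Of the other members, and of each further list, those described beyond that rule, such as RIOX1, KDM8, KDM6B, WDR5, DPY30, HCFC1, KDM1B, AHCY, IDH3A and RFK, were chosen after their values were seen. Some genes of the lists are not reported here and are not in their counts or sums. The members and lists were chosen with earlier results of these data known. With 2 libraries per group and 5401588 to 20690819 counts each, precision for low genes is limited by counting error, and floors of 3 counts cover that error only. p-values measure the spread between these libraries.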

Additional observations from a re-analysis of the deposited data

How the results depend on the processing

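The RLE size factors, DESeq2, the likelihood-ratio test and scaling without mitochondrially encoded genes and MALAT1 left the direction of all 39 listed genes and every call (FDR and 2-fold) as reported. The FDR alone fell below 0.05 for KDM4B with that scaling (FDR = 0.0499) and the likelihood-ratio test (FDR = 0.0246), and for JARID2 with the latter (FDR = 0.0295). The count of 8 listed genes called lower became 11 with library totals, 11 with no filter and 7 with at least 10 counts in every library. It became 4 with upper-quartile normalization and 2 with glmTreat (a test against 2-fold). In the trend fits it was 2 with the length trend removed, 5 with length and GC trends removed and 2 with the length trend and the replicate block. The 2 called higher became 5, 6 and 5 in the 3 trend fits, and 3 with the upper quartile and with at least 10 counts in every library. The 4 erasers called lower became 2 (upper quartile), 7 (no filter), 6 (library totals), 3 (at least 10 counts in every library), and 1 with glmTreat and in each trend fit. The count of 0 erasers called higher became 1 with at least 10 counts in every library, and 3, 2 and 3 in the trend fits, and without single libraries 0 to 1, KDM8 being the gene without CPI-455 replicate 2. The 4 writers called lower became 5 (library totals), 2 (upper quartile) and 1 (glmTreat, length trend, length trend with block). The 2 writers called higher became 4 with length and GC trends removed and 3 with the upper quartile. Over the whole table glmTreat called 2350 of 3756 lower and 2455 of 3698 higher.

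The erasers' median of −0.43 was −0.26 (upper quartile), −0.62 (library totals), −0.60 (no filter), −0.34 (at least 10 counts in every library), −0.049 (length trend, with and without the block) and −0.078 (length and GC), and −0.57 to −0.39 without single libraries. The writers' median of 0.22 was 0.40, 0.031 and 0.065 under the first 3 of these, 0.42 with the length trend removed, with and without the block, and 0.059 to 0.25 without single libraries, 0.059 being without CPI-455 replicate 1. Relative to TMM, upper-quartile normalization moved the median of all genes by 0.17 and library totals by −0.19.

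Signs changed only for genes that did not pass. Values were −0.026 for KDM1B, −0.11 for KDM2B and −0.16 for KDM5C with library totals, −0.077 for KDM2B and −0.12 for KDM5C without a filter, and 0.050 for JMJD6 with the upper quartile. With the length trend removed they were 0.12 for KDM6A, 0.18 for JMJD6 and 0.059 for ASH2L, and 0.12, 0.18 and 0.060 with the block added, and with length and GC 0.26, 0.16 and 0.12, and 0.078 for KDM4C. Without single libraries KDM2B ranged from −0.016 (without CPI-455 replicate 1) to 0.10 and KDM5C from −0.12 (the same library) to 0.11, with −0.024 without vehicle replicate 1. KDM5B lost its call with the upper quartile (−0.90), with glmTreat (FDR = 0.275) and in the trend fits (−0.71 to −0.67), whereas RBBP5, CXXC1 and SMYD3 kept theirs in every fit, and KDM4D in every fit that included it (it had under 10 counts in the CPI-455 libraries). The causes were not tested.

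Over the genes tested, the differences between replicates 1 and 2 had a correlation of 0.04 between the vehicle and CPI-455 groups. The labels do not say whether same-numbered cultures were paired, and pairing was not tested. A replicate block left 8 listed genes called lower and 2 higher. Low counts with CPI-455 limit KDM4C, KDM4D, KDM8 and RIOX1. SMYD3 had only 122 to 177 counts over all 4 libraries.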
